A study of Mus musculus with 12 samples.

Results

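The genes described here are 8 annexins (Anxa1, Anxa2, Anxa3, Anxa4, Anxa5, Anxa6, Anxa7 and Anxa11) and 2 S100 proteins (S100a10 and S100a11) in mouse liver, 10 of the 24787 genes in the count tables. They were taken by gene symbol, from a list chosen by the levels and fold changes that these same libraries showed, so their levels and fold changes are given as a description and carry no p-value. RNA sequencing of liver covered 12 C57Bl/6 libraries, 4 each from mice on a high-fat diet given MEC1 (HFD+MEC1), mice on a high-fat diet given vehicle (HFD) and mice on a normal diet (ND). The diets ran for 2 months before the HFD mice were divided at random, and the injections, MEC1 at 0.5 mg/kg or vehicle, were then given every day into the peritoneal cavity. Both HFD groups therefore share the diet and the injections, and the labels do not say what MEC1 is, how long it was given, whether ND mice were injected, or the sex and age of the mice. The labels also do not state that each library came from a different mouse, so the errors and p-values below measure the spread between libraries, part of which may be technical.

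Annexins are calcium-dependent proteins that bind the negatively charged phospholipids of membranes. S100 proteins are small EF-hand proteins that work as dimers, and S100a10 binds the tail of Anxa2 and S100a11 that of Anxa1, which lets an annexin pair bridge membranes. At cell surfaces, Anxa2 with S100a10 is known to assemble plasminogen with its activators, Anxa5 binds exposed phosphatidylserine, and Anxa6 takes part in endocytic and cholesterol traffic.

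The start regions of 3 members are shown because they belong to members described in detail below (Anxa2 and Anxa5) or hold a pair of matches to the AP-1 motif (S100a11). RefSeq promoter entries on GRCm38.p6 were matched for 7 of the 10 members (not S100a10, Anxa3 or Anxa6), and the 250 bases before each RefSeq start are printed in the direction of transcription. Capitals mark matches, on either strand, to 4 motifs, and no matches overlapped one another. These were the TATA box, spelled TATAAA, the CCAAT box as named, the GC box, spelled GGGCGG, and the AP-1 motif, spelled TGANTCA.

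Anxa2 (chr9:69453433-69453682, + strand): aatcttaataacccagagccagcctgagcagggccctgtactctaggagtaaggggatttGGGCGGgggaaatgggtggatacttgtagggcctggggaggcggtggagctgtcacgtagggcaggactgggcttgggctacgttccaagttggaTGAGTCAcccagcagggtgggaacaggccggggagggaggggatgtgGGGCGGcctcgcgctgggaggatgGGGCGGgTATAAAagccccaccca

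S100a11 (chr3:93520246-93520495, + strand): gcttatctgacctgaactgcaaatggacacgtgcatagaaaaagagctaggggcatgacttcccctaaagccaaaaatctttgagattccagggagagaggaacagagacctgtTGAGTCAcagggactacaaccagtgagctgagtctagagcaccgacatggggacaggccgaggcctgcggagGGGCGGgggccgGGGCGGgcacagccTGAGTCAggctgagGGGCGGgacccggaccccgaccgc

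Anxa5 (chr3:36475888-36476137, - strand): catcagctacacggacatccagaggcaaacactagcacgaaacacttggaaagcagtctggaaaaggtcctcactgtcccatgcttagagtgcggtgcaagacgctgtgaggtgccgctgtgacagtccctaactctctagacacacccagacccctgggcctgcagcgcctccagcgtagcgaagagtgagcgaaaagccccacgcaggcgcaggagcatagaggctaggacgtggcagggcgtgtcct

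The Anxa2 window held 1 TATA box, 3 GC boxes and 1 AP-1 match, with a GC content of 62.4%. The S100a11 window held 3 GC boxes and 2 AP-1 matches (GC content 60.0%), and the Anxa5 window held none of the 4 motifs (58.8%), against a median GC content of 52.4% over all promoters. Of the 32851 promoters of 27025 genes searched the same way, 12.4% held the TATA box, 33.8% the CCAAT box, 32.7% the GC box and 6.75% the AP-1 motif. Among the 7 members with an entry, the AP-1 motif occurred in Anxa2 and S100a11, the TATA box in Anxa1 and Anxa2, and the GC box in Anxa2, Anxa7, Anxa11 and S100a11. A match is a run of letters and was not tested as a binding site.

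On mouse chromosome 3, S100a11 (93520488 to 93526287) and S100a10 (93555080 to 93564643) lie on the same strand, 28793 bases apart, in the GENCODE M21 annotation of GRCm38. Anxa5 is also on chromosome 3 (36448923 to 36475894), Anxa2 on chromosome 9 (69453620 to 69491795) and Anxa6 on chromosome 11 (54979108 to 55033445). Exons of Anxa2, Anxa4 and Anxa11 overlap a gene on the other strand over 2.6%, 1.6% and 2.7% of their exonic bases, and exons of Anxa3 overlap a gene on the same strand over 3.1%; no source used here says whether the counting used strand. Transcripts of 2 other genes match S100a11 at 98.99% and 98.653% identity over 297 of its 511 bases, and 2 match Anxa11 over 657 and 609 bases, so the counts of S100a11 and Anxa11 are uncertain where reads could have been split.

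Libraries held 39916405 to 51340317 counts, and the member with the fewest counts in any library had 82. Levels are given as CPM, counts scaled to a common library size by TMM-scaled totals, where 3 counts stand for 0.059 to 0.077 CPM. HFD replicate 3 and HFD+MEC1 replicate 1 had the highest TMM factors, 1.112 and 1.098, against 0.9104 to 1.034 in the other 10 libraries. Hepatocyte markers (Alb, Ttr, Apoa1 and others, 7 of 8 in the tables and none at 0) summed to 69192 to 92252 CPM in HFD+MEC1 livers, 83704 to 96920 CPM in HFD livers and 84757 to 97169 CPM in ND livers.

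In HFD livers, Anxa2 and its partner S100a10 were higher than in ND livers, Anxa5 and Anxa3 were higher too, and Anxa6 was lower. HFD+MEC1 livers had lower means than HFD livers for Anxa2, Anxa5 and S100a10, at levels overlapping those of ND livers, while Anxa6 was lower than in ND livers in both HFD groups. In bulk tissue, a lower level may come from fewer cells of a type or from less RNA per cell, and these cannot be told apart. Each comparison below is a contrast of a single fit to all 12 libraries, and a gene is called when its adjusted p is under 0.05 (edgeR quasi-likelihood test, Benjamini-Hochberg over the 14172 genes tested). The comparison of HFD with ND and that of HFD+MEC1 with HFD both use the same 4 HFD libraries, so their values are not independent.

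**Figure D1:**
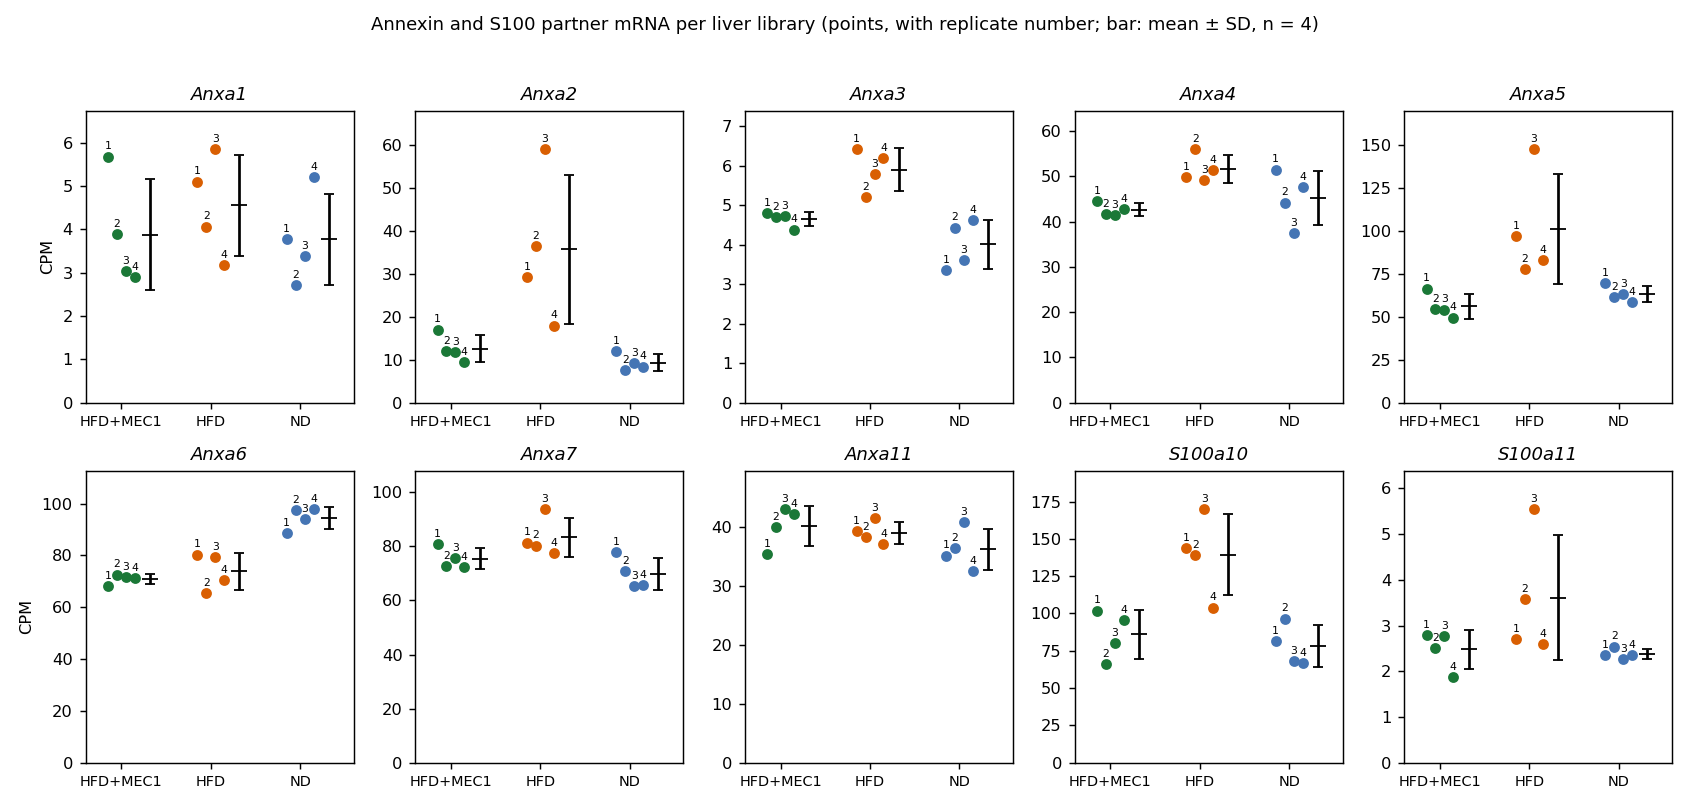
Level of each of the 10 genes in each library, in CPM on TMM-scaled totals (vertical axis, from 0), for HFD+MEC1, HFD and ND livers; points carry the replicate number and the bars show mean ± SD (n = 4). For Anxa2, HFD replicate 3 stands at 59.1 CPM, and all 4 HFD points lie above the highest HFD+MEC1 point (17) and the highest ND point (12).

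Anxa2, which binds membranes and recruits plasminogen together with S100a10, measured 17, 12, 11.8 and 9.45 CPM in HFD+MEC1 livers, 29.2, 36.4, 59.1 and 17.9 CPM in HFD livers, and 12, 7.63, 9.18 and 8.38 CPM in ND livers. On CPM, all HFD libraries lay above all libraries of both other groups, narrowly so over HFD+MEC1 replicate 1, and the HFD+MEC1 and ND libraries overlapped. On the deposited RPKM values, which are per length, HFD replicate 4 (10.1) was below HFD+MEC1 replicate 1 (10.7), so these groups overlapped. The log2 fold change was 1.94 ± 0.33 (SE) for HFD against ND, -1.50 ± 0.33 for HFD+MEC1 against HFD and 0.44 ± 0.33 for HFD+MEC1 against ND. HFD replicate 3 was highest of all 12 libraries, and without it the first 2 values were 1.58 and -1.14.

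S100a10, the small calcium-insensitive S100 protein that binds Anxa2, measured 102, 66.0, 80.3 and 95.7 CPM in HFD+MEC1 livers, 144, 139, 170 and 104 CPM in HFD livers, and 81.6, 96.6, 68.0 and 67.0 CPM in ND livers. On CPM, the lowest HFD library was above every library of both other groups, by a narrow margin over HFD+MEC1 replicate 1. On deposited RPKM, HFD replicate 4 (125) was below HFD+MEC1 replicate 1 (136). The log2 fold change was 0.83 ± 0.17 for HFD against ND, -0.70 ± 0.17 for HFD+MEC1 against HFD and 0.13 ± 0.17 for HFD+MEC1 against ND.

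Anxa5, the annexin that binds phosphatidylserine, measured 66.4, 54.3, 54.2 and 49.5 CPM in HFD+MEC1 livers, 97.1, 77.6, 148 and 83.0 CPM in HFD livers, and 69.7, 61.5, 63.2 and 58.8 CPM in ND livers. HFD libraries again lay above all others, and HFD replicate 3 was far above the other HFD libraries. The log2 fold change was 0.68 ± 0.17 for HFD against ND and -0.85 ± 0.17 for HFD+MEC1 against HFD; without HFD replicate 3 these values were 0.44 and -0.61. For HFD+MEC1 against ND it was -0.17 ± 0.17. The call for HFD against ND was lost without ND replicate 1, 2, 3 or 4 (log2 fold changes 0.72, 0.66, 0.67 and 0.64) or without HFD replicate 1 (0.70). It was also lost when only the HFD and ND libraries were fitted.

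Anxa6, the annexin that acts in endosomal and cholesterol traffic, measured 68.3, 72.6, 71.5 and 71.3 CPM in HFD+MEC1 livers, 80.3, 65.5, 79.4 and 70.6 CPM in HFD livers, and 88.6, 97.5, 94.0 and 97.9 CPM in ND livers. On CPM, every library of both HFD groups lay below every ND library. On deposited RPKM, HFD replicate 3 (25.5) was above ND replicate 1 (24.6), while all HFD+MEC1 libraries stayed below the ND libraries. The log2 fold change was -0.35 ± 0.08 for HFD against ND and -0.41 ± 0.08 for HFD+MEC1 against ND, and -0.06 ± 0.08 for HFD+MEC1 against HFD. On library totals instead of TMM scaling, the first 2 values were -0.23 and -0.34, and neither met the call rule. Both calls were also lost on RPKM with pseudocounts of 0.1 and 1, where the values were -0.26 and -0.25 for HFD against ND and -0.33 and -0.32 for HFD+MEC1 against ND.

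Anxa3, an annexin expressed at low level here, averaged 4.65 ± 0.182 CPM in HFD+MEC1 livers, 5.90 ± 0.539 CPM in HFD livers and 4.01 ± 0.619 CPM in ND livers (SD, n = 4 each). Its log2 fold change was 0.56 ± 0.15 for HFD against ND and -0.34 ± 0.15 for HFD+MEC1 against HFD. On CPM, HFD libraries lay above all libraries of both other groups. On deposited RPKM, HFD replicate 2 (2.53) was below HFD+MEC1 replicate 1 (2.6). The call for HFD against ND was lost without ND replicate 1 (log2 fold change 0.48), ND replicate 3 (0.50), HFD replicate 1 (0.51), HFD replicate 3 (0.57), HFD replicate 4 (0.53) or HFD+MEC1 replicate 2 (0.55). It was also lost when only the HFD and ND libraries were fitted, and with the replicate number as a block.

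S100a11, which binds Anxa1, averaged 2.49 ± 0.426 CPM in HFD+MEC1 livers, 3.61 ± 1.36 CPM in HFD livers and 2.38 ± 0.116 CPM in ND livers. The highest value, 5.55 CPM, came from HFD replicate 3; the log2 fold change of HFD against ND was 0.60 ± 0.24 with that library and 0.32 without it, and the call rule was not met. For HFD+MEC1 against HFD it was -0.54 ± 0.24, and -0.25 without HFD replicate 3. Its annexin partner Anxa1, an anti-inflammatory annexin, averaged 3.87 ± 1.28 CPM in HFD+MEC1 livers, 4.55 ± 1.18 CPM in HFD livers and 3.77 ± 1.06 CPM in ND livers, with all 3 groups overlapping and a log2 fold change of 0.27 ± 0.26 for HFD against ND.

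Anxa7, Anxa4 and Anxa11 did not meet the call rule in any comparison, except that Anxa7 did so for HFD against ND on library totals. Anxa7, an annexin of the secretory pathway, averaged 75.4 ± 3.89 CPM in HFD+MEC1 livers, 83.3 ± 7.20 CPM in HFD livers and 69.9 ± 5.90 CPM in ND livers, with log2 fold changes of 0.25 ± 0.08 for HFD against ND and -0.14 ± 0.08 for HFD+MEC1 against HFD. Anxa4, an epithelial annexin, averaged 42.6 ± 1.46 CPM in HFD+MEC1 livers, 51.6 ± 3.11 CPM in HFD livers and 45.2 ± 6.00 CPM in ND livers; its HFD libraries lay above every HFD+MEC1 library and overlapped the ND libraries. The log2 fold change of Anxa4 was -0.28 ± 0.09 for HFD+MEC1 against HFD and 0.19 ± 0.09 for HFD against ND. Anxa11, which tethers RNA granules to lysosomes, averaged 40.2 ± 3.46 CPM in HFD+MEC1 livers, 39.0 ± 1.89 CPM in HFD livers and 36.3 ± 3.52 CPM in ND livers, a range in which all groups overlapped. Its log2 fold change for HFD+MEC1 against HFD, 0.04 ± 0.09, was below 0 on library totals.

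**Figure D2:**
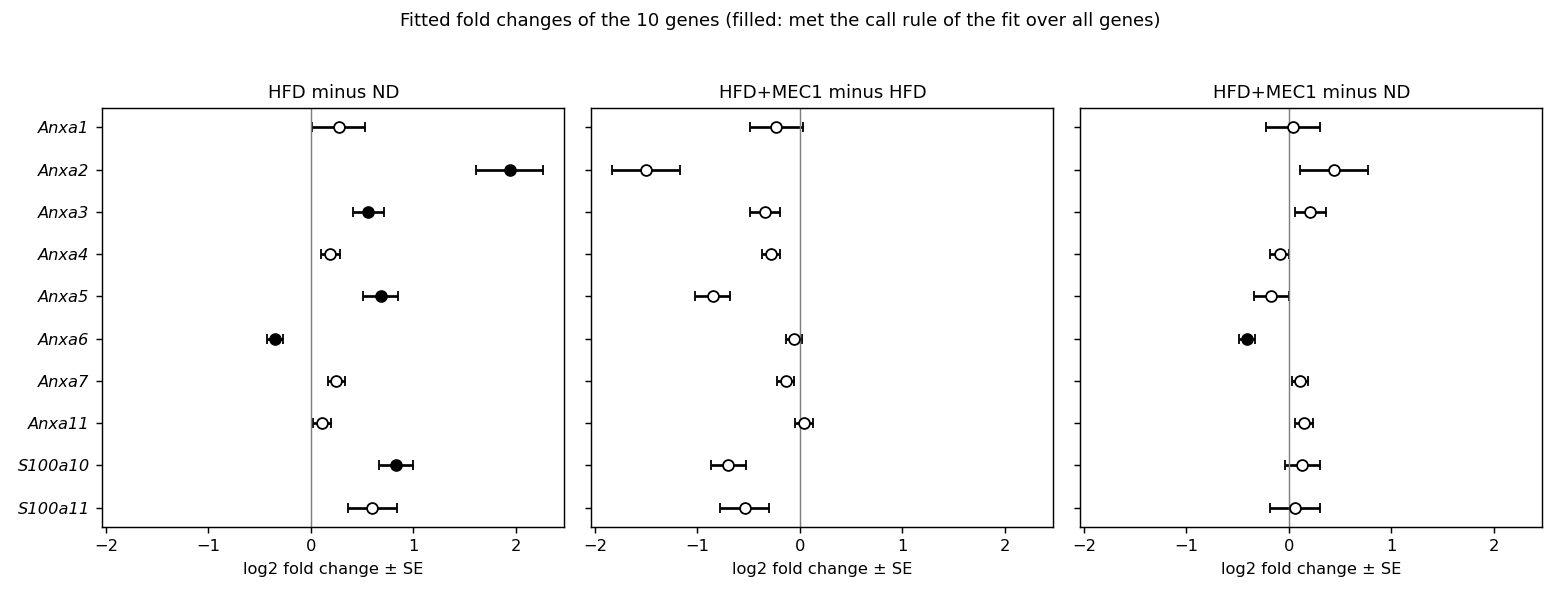
Fitted log2 fold change of each of the 10 genes (horizontal axis; bars, SE) for HFD against ND, HFD+MEC1 against HFD and HFD+MEC1 against ND; filled points met the call rule. Anxa2 lies farthest from 0 in the first panel (1.94) and in the second (-1.50), and Anxa6 is the only filled point of the third.

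For HFD against ND, 5 of the 10 members met the call rule (Anxa2, Anxa3, Anxa5 and S100a10 higher, Anxa6 lower), where 6.30% of all tested genes did, 3.35% higher and 2.95% lower. On CPM, the 2 groups did not overlap for 6 members, 5 above and 1 below, against 14.3% of all genes (7.46% above and 6.81% below). This depended on the scale: on deposited RPKM Anxa6 overlapped, and Anxa4 and Anxa7 did not. For HFD+MEC1 against HFD, none of the 10 met the rule in edgeR or in limma-voom, 6 had an unadjusted p under 0.05 and 3 were called by DESeq2 (Anxa2, Anxa5 and S100a10), where edgeR called 0.0282% of all genes, DESeq2 2.86%, and 14.8% had an unadjusted p under 0.05. On CPM, the groups did not overlap for 5 members, all lower in HFD+MEC1 livers (Anxa2, Anxa3, Anxa4, Anxa5 and S100a10), against 7.11% of all genes in either direction and 3.98% lower. On deposited RPKM, Anxa2, Anxa3 and S100a10 overlapped between these groups, and Anxa4 and Anxa5 did not. The shares of all genes on RPKM were not computed. Without HFD replicate 4, or without HFD+MEC1 replicate 1, edgeR called Anxa2, Anxa5 and S100a10. For HFD+MEC1 against ND, Anxa6 alone met the rule and was the one member whose groups did not overlap, lower in HFD+MEC1 livers; 4.54% of all genes were called, 2.40% lower, and 5.84% lay lower without overlap. The members were chosen with these contrasts known, so nothing is read from these counts.

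The median log2 fold change of the 10 members was 0.41 for HFD against ND, -0.31 for HFD+MEC1 against HFD and 0.09 for HFD+MEC1 against ND, beside medians over all tested genes of -0.00, 0.01 and 0.00. On library totals, the medians over all genes were 0.12, -0.05 and 0.08. Fold changes were above 0 for 9 of 10, 1 of 10 and 7 of 10 members in the 3 comparisons, and for 49.4%, 51.1% and 50.6% of all genes.

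Within both HFD groups, single libraries were high or low for many members at once. HFD replicate 3 was the highest of all 12 libraries for 6 of the 10 members, and HFD replicate 4 was the lowest HFD library for 6. Within HFD+MEC1, replicate 1 was the highest for 8 members and replicate 4 the lowest for 6. In ND livers the extremes were spread over the libraries, each of which was the highest for 1 to 4 members and the lowest for 2 to 3. The share of all genes with such extremes was not computed, so these counts are not read as particular to the members. Over genes with enough counts, the mean chi-square per gene between libraries of a group reached 270 in HFD, 422 in HFD+MEC1 and 57.9 in ND. HFD replicate 3 and HFD+MEC1 replicate 1 are also the libraries with the highest TMM factors; the part of composition in these levels was not tested. Across the 12 libraries, the log2 CPM values of Anxa2, Anxa5, Anxa7, S100a10 and S100a11 correlated pairwise at r = 0.72 to 0.89 (10 pairs), and at 0.43 to 0.82 as deviations from group means. Over all 45 pairs of members the ranges were -0.5 to 0.89 and -0.71 to 0.82. These points share libraries and scaling factors, and no p is given.

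**Figure D3:**
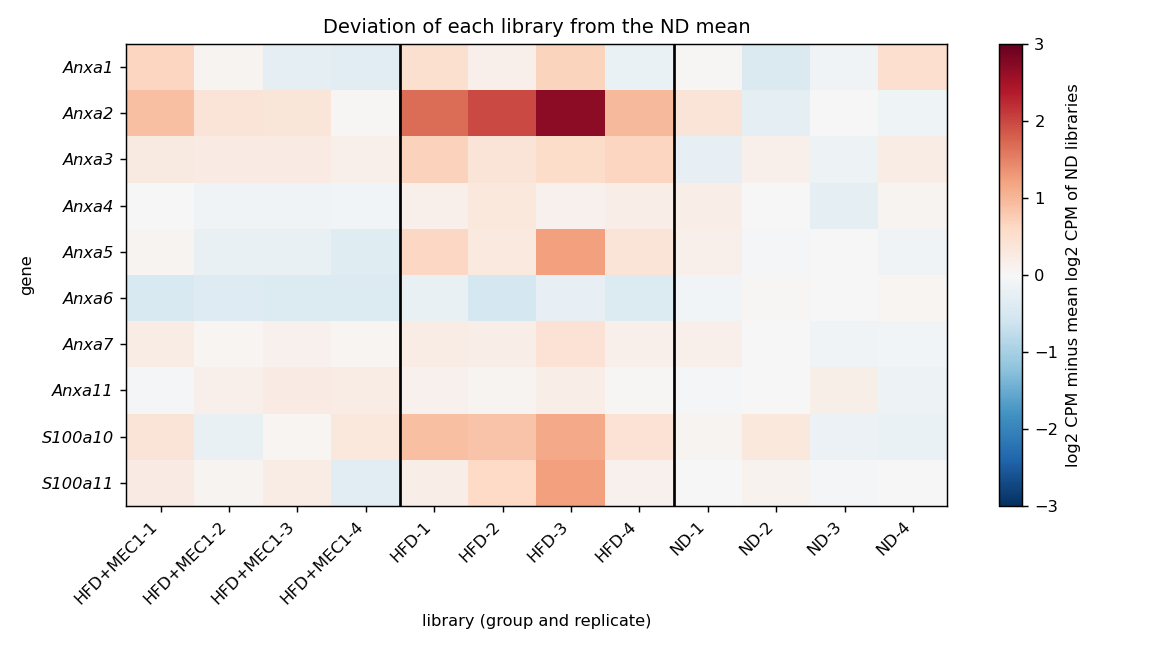
Deviation of each library (columns) from the mean log2 CPM of the ND libraries, for each of the 10 genes (rows); red is above and blue below the ND mean, and lines separate HFD+MEC1, HFD and ND. Anxa2 is red across all 4 HFD libraries, and Anxa6 is blue across all libraries of both HFD groups.

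The abundance of different genes was compared on the deposited RPKM values, which are per length. No TMM scaling was applied to them, so differences between groups on RPKM are not those on CPM. S100a10 was the most abundant member in every group, at 106 ± 23.8 RPKM in HFD+MEC1 livers, 174 ± 41.2 RPKM in HFD livers and 90.6 ± 12.6 RPKM in ND livers. Anxa5 came second, at 26.1 ± 4.95 RPKM in HFD+MEC1 livers, 47.8 ± 17.6 RPKM in HFD livers and 27.7 ± 2.06 RPKM in ND livers; its libraries overlapped those of the next gene, Anxa6, in HFD+MEC1 and ND livers. Anxa1 and Anxa3 were the least abundant, between 1.89 and 2.97 RPKM on average, and did not differ from each other beyond their spread in any group. Anxa2 ranked 7 in HFD+MEC1 livers (7.35 ± 2.33 RPKM), ranked 5 in HFD livers (21.1 ± 11.3 RPKM), where it overlapped Anxa6 above it and Anxa4 below it, and ranked 7 in ND livers (5.09 ± 1.05 RPKM).

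The 8 annexins summed to 109 ± 12.2 RPKM in HFD+MEC1 livers, 152 ± 35.9 RPKM in HFD livers and 108 ± 4.46 RPKM in ND livers. Anxa2 made up 6.67 ± 1.30% of that sum in HFD+MEC1 livers, 13.3 ± 4.33% in HFD livers and 4.69 ± 0.792% in ND livers. Anxa6 made up 19.6 ± 1.44% in HFD+MEC1 livers, 15 ± 1.96% in HFD livers and 24.6 ± 1.91% in ND livers. Anxa5 made up 23.9 ± 1.73% in HFD+MEC1 livers, 30.9 ± 3.97% in HFD livers and 25.5 ± 1.12% in ND livers. The S100a10 to Anxa2 ratio was 15.1 ± 4.43 in HFD+MEC1 livers, 9.26 ± 2.72 in HFD livers and 18.5 ± 5.67 in ND livers, so that the partners were nearer in level in HFD livers, where the ratio ran between 6.12 and 12.3, than in ND livers, where it ran between 14.4 and 26.9.

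**Figure D4:**
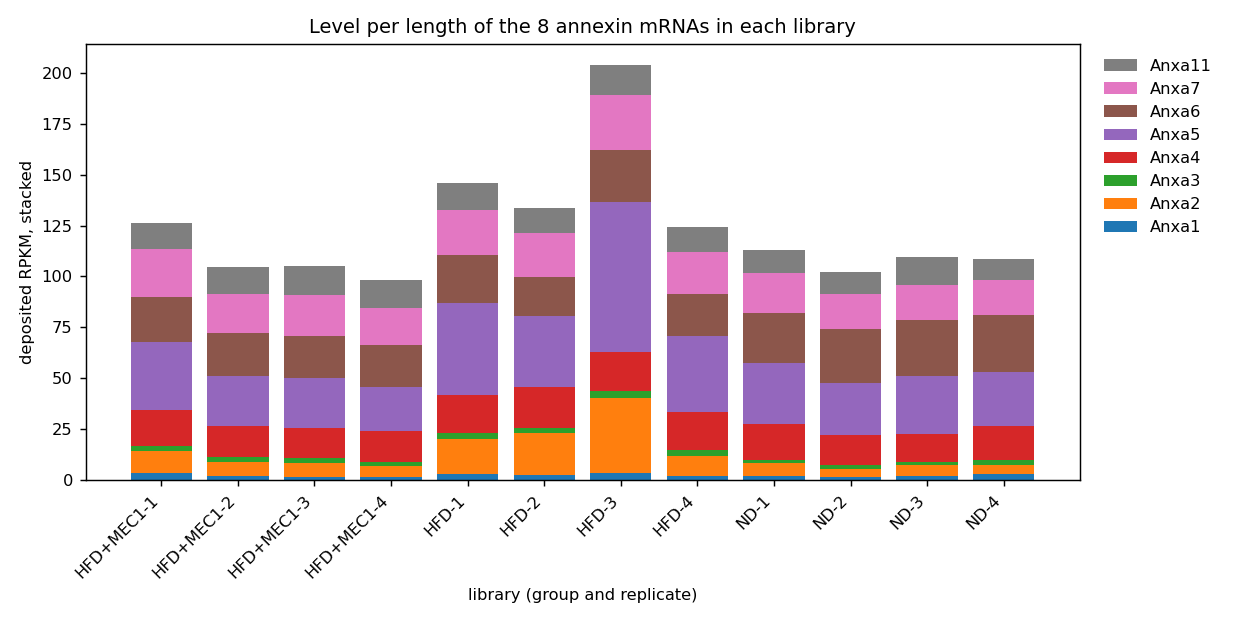
Deposited RPKM of the 8 annexins stacked for each library (vertical axis from 0; colours, genes), in the order HFD+MEC1, HFD, ND. The HFD replicate 3 column is the tallest, at 204 RPKM, and the Anxa2 block takes 18.1% of it.

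Other genes of the pathways were taken from 6 lists of 50 genes, of which 41 could be tested. For HFD against ND, 1 of 41 was called, higher, and 0 lower, where 6.30% of all tested genes were called. For HFD+MEC1 against HFD, 0 of 41 were called by edgeR or limma-voom, where edgeR called 0.0282% of all genes. In that comparison 5 had an unadjusted p under 0.05, against 14.8% of all genes. DESeq2 called 2 there (Capn2 and Serpinf2), against 2.86% of all genes. For HFD+MEC1 against ND, 1 was higher and 1 lower, where 4.54% of all genes were called. Nothing is read from these counts about the lists. The lists were chosen with earlier results of these data known, so adjusted p-values of their genes, here and below, are given as a description. Capn2, the calpain protease that acts in membrane repair, averaged 50.4 ± 1.68 CPM in HFD+MEC1 livers, 59.5 ± 2.28 CPM in HFD livers and 47.6 ± 1.92 CPM in ND livers, a log2 fold change of 0.32 ± 0.07 for HFD against ND (edgeR, adjusted p = 0.0113). Capn2 was higher in 4 of 4 HFD libraries than in any ND library.

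Axl, a receptor that recognises phosphatidylserine through Gas6, averaged 31.3 ± 3.21 CPM in HFD+MEC1 livers, 28.6 ± 4.04 CPM in HFD livers and 22.4 ± 3.67 CPM in ND livers, a log2 fold change of 0.48 ± 0.13 for HFD+MEC1 against ND (edgeR, adjusted p = 0.0401). Anxa13, an epithelial annexin, fell to 0.127 ± 0.0806 CPM in HFD+MEC1 livers, against 0.929 ± 0.670 CPM in ND livers, with HFD livers at 0.368 ± 0.309 CPM; its log2 fold change was -2.81 ± 0.71 (edgeR, adjusted p = 0.033) on few reads, and HFD+MEC1 replicate 3 (0.0513 CPM) was below the level of 3 counts. Of 21 alternatives tried, Axl was called in 15 and Anxa13 in 13. The Axl call was lost without ND replicate 1, 2 or 4 (0.40, 0.44 and 0.51) and without HFD+MEC1 replicate 2, 3 or 4 (0.49, 0.42 and 0.47). The Anxa13 call was lost without ND replicate 1 or 3 (-2.78 and -2.23) and without HFD+MEC1 replicate 1, 3 or 4 (-2.65, -2.57 and -2.84).

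Of the other lists, plasminogen activation had 8 genes tested and none called in any comparison. Plg, the plasminogen precursor, averaged 2072 ± 254 CPM in HFD+MEC1 livers, 1664 ± 156 CPM in HFD livers and 2085 ± 74.5 CPM in ND livers. Serpinf2, the plasmin inhibitor, averaged 927 ± 148 CPM in HFD+MEC1 livers, 633 ± 107 CPM in HFD livers and 777 ± 24.7 CPM in ND livers. The membrane repair list had 11 genes tested, with Capn2 alone called, and Pdcd6ip, an ESCRT partner, at 101 ± 3.19 CPM in HFD+MEC1 livers, 99.2 ± 5.69 CPM in HFD livers and 95.5 ± 5.43 CPM in ND livers. The 14 other S100 genes held 7 that could be tested, none of them called; S100a1 had the highest CPM, at 53.7 ± 4.88 CPM in HFD+MEC1 livers, 61.0 ± 2.69 CPM in HFD livers and 64.4 ± 6.62 CPM in ND livers. Another 4 S100 genes had no counts in any library, which at 3 counts allows up to 0.077 CPM each. The formyl peptide receptors, through which Anxa1 signals, averaged 3.33 ± 0.792 CPM in HFD+MEC1 livers, 2.62 ± 0.953 CPM in HFD livers and 2.32 ± 0.521 CPM in ND livers for Fpr1, and were not called. The phosphatidylserine recognition list had 10 genes tested, with Axl alone called; its gene with the highest CPM, which is not corrected for length, was the endocytic receptor Lrp1, which averaged 857 ± 228 CPM in HFD+MEC1 livers, 587 ± 110 CPM in HFD livers and 668 ± 95.5 CPM in ND livers. Median log2 fold changes for HFD against ND were -0.30 over the 3 other annexins tested, 0.47 over the other S100 genes, -0.01 for plasminogen activation, 0.14 for membrane repair, -0.10 for the formyl peptide receptors and 0.06 for phosphatidylserine recognition, beside -0.00 over all genes. In the same order they were -1.48, -0.19, 0.09, 0.07, 0.49 and 0.13 for HFD+MEC1 against HFD, beside 0.01, and -0.25, -0.01, 0.10, 0.08, 0.39 and 0.33 for HFD+MEC1 against ND, beside 0.00. Medians of short lists rest on single genes. The -1.48 was the value of Anxa13 (SE 0.72, on few reads), with Anxa8 at -2.03 ± 1.05 and Anxa9 at 0.05 ± 0.25. The 0.47 was that of S100a9 (SE 0.68), and only 2 formyl peptide receptors were tested. No shift of a whole family is read from these medians.

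Markers of cell types were summed per library for 12 lists and compared between groups in 36 two-sided exact permutation tests. The smallest p that 4 against 4 libraries allow is 0.0286, too large for a few tests to pass adjustment over 36, so that none passed (smallest adjusted p 0.257) says nothing on whether the sums differed. At that smallest p stood 4 tests: cholangiocyte markers were lower in HFD than in ND livers (log2 difference -0.57), T and NK cell markers higher in HFD+MEC1 than in HFD livers (0.53), and monocyte markers (0.70) and sinusoidal endothelium markers (0.28) higher in HFD+MEC1 than in ND livers. Macrophage markers, 11 of 11 present and none at 0, summed to 446 to 600 CPM in HFD+MEC1 livers, 380 to 608 CPM in HFD livers and 317 to 470 CPM in ND livers. Lipid-associated macrophage markers, 3 of 3 present and none at 0, summed to 13.4 to 25.9 CPM in HFD+MEC1, 16.6 to 21.5 CPM in HFD and 15.1 to 19.7 CPM in ND livers. Their log2 difference was 0.21 for HFD against ND and -0.22 for HFD+MEC1 against HFD (exact permutation p = 0.114 and 0.429). By gene, 3 of 3 had a fold change above 0 for HFD against ND and 1 was called higher, where 3.35% of all tested genes were. For HFD+MEC1 against HFD, 0 of 3 were above 0 and 0 were called. Sums of neutrophil, mesothelium, B cell and red cell markers are not printed. Cholangiocyte markers, 7 of 7 present and none at 0, summed to 49.6 to 104 CPM in HFD+MEC1 livers, 52.0 to 69.8 CPM in HFD livers and 76.3 to 104 CPM in ND livers. Stellate and fibroblast markers, 9 of 9 present and none at 0, summed to 182 to 306 CPM in HFD+MEC1 livers, 141 to 338 CPM in HFD livers and 231 to 372 CPM in ND livers. T and NK cell markers, 6 of 6 present and none at 0, summed to 4.64 to 6.60 CPM in HFD+MEC1 livers, 3.47 to 4.52 CPM in HFD livers and 3.30 to 5.75 CPM in ND livers. Monocyte markers, 3 of 3 present and none at 0, summed to 4.28 to 9.19 CPM in HFD+MEC1 livers, 3.22 to 5.98 CPM in HFD livers and 3.16 to 4.10 CPM in ND livers. Sinusoidal endothelium markers, 8 of 8 present and none at 0, summed to 310 to 363 CPM in HFD+MEC1 livers, 276 to 338 CPM in HFD livers and 201 to 304 CPM in ND livers. As deviations from group means over the 12 libraries, the 36 correlations of log2 Anxa2, Anxa5 and S100a10 with the 12 sums ran from -0.61 to 0.66, given as a description. The stellate and fibroblast sum gave r = 0.66 with Anxa2, 0.34 with Anxa5 and 0.17 with S100a10, and the T and NK sum gave -0.61, -0.35 and -0.16. The sinusoidal endothelium sum gave -0.58, -0.48 and -0.38, and the red cell sum gave -0.10, 0.21 and 0.64. The part of such cells in the annexin levels was not tested.

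By Pearson r of log2 CPM over the 12 libraries, the genes most like Anxa2 were Tceal8 (r = 0.94), Cidec (0.94), a lipid droplet protein, Cd36 (0.93), a fatty acid transporter, Syap1 (0.93) and Tmem64 (0.93). Cd36 averaged 61.9 CPM in HFD+MEC1 livers, 177 CPM in HFD livers and 34.0 CPM in ND livers, and Cidec averaged 4.43 CPM in HFD+MEC1 livers, 18.3 CPM in HFD livers and 1.12 CPM in ND livers. In the same order of groups, Tceal8 averaged 6.95, 24.1 and 4.85 CPM, Syap1 54, 66.4 and 51 CPM, and Tmem64 66.2, 85.7 and 57.1 CPM. The genes most like Anxa5 were Gm38426 (0.95), Tubb2b (0.95), Nudt4 (0.94), Tubb2a (0.94) and Fam126a (0.93). Leaving out the 2 libraries farthest from the median, r was 0.86 to 0.90 for the Anxa2 genes and 0.80 to 0.92 for the Anxa5 genes. As deviations from group means, r was 0.67 to 0.80 for the Anxa2 genes and 0.76 to 0.94 for the Anxa5 genes. These genes were picked for the highest r among all tested genes in these same libraries. High r was therefore built in, also in parts of the libraries, and no shared function is read from the names.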

How the data were processed

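RNA was extracted with Trizol from frozen liver, and libraries were made with Illumina protocols, per the labels' protocols. Reads were processed with STAR 2.7.10a on mm10, per the submitters' processing notes; the counting tool and its strand setting are not given in the sources used here. The deposited whole-number counts per gene were used as the authors left them, and 70.1% to 74.7% of values between 1 and 20 were even. The RPKM values are those the authors deposited, and 12 columns of that table matched no sample and were left out. In each library, 244 to 296 genes had 0 counts but an RPKM above 0, so the counts and RPKM values differ there. Sample titles gave each library its group and number. Counts were tested with edgeR 4.0.16 in R 4.3.3 (TMM, filterByExpr leaving 14172 genes and 99.98% of counts, glmQLFit, all 12 libraries in 1 model; common biological coefficient of variation 0.2), with DESeq2 1.42.0, limma 3.58.1 and other scalings as alternatives. RPKM alternatives used log2(RPKM + 0.1) or log2(RPKM + 1). The code was tested on simulated data. The members and lists were chosen with earlier results of these data known. Named genes were the 10 members, any listed gene meeting the call rule, up to 3 others per list by highest mean CPM, and the 5 genes most like Anxa2 and Anxa5; not all are printed. Between replicates, the mean chi-square per gene was at least 35.9, so none was counted as a repeat of another.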

Additional observations from a re-analysis of the deposited data

Results flagged for a closer look

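Of 42 groups of 4 libraries examined, 1 held a library far from the others, where chance would give about 1 in 20. Capn2 in ND replicate 4 measured 44.7 CPM, against 48.2 to 48.8 CPM in the other ND libraries, a gap of 0.856 of the group's range, above the 95% critical value for 4 values.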

How the results depend on the processing

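Over the 21 alternatives, 624 of 630 member fold changes stayed within 1 SD of the reported value, 6 moved and 0 of the called values reversed. Library totals accounted for 4 of the 6 (Anxa6, Anxa7 and Anxa11), and RPKM for the other 2 (Anxa6). The 630 include fits without a library of the group outside the comparison, which could hardly move a value. The SD is the spread between libraries, so a large change can stay within it. S100a11 for HFD against ND, 0.60 in the main fit and 0.32 without HFD replicate 3, counted as within 1 SD. The count of 624 is therefore no measure of stability. The hepatocyte marker sum for HFD against ND was 0.13 (log2) on library totals. The cause was not tested for any of the changes below. Under DESeq2, called genes numbered 1391 for HFD against ND, 389 for HFD+MEC1 against HFD and 1155 for HFD+MEC1 against ND (893, 4 and 644 in edgeR), called members 3 for HFD+MEC1 against HFD, and called related genes 3 for HFD against ND and 2 for HFD+MEC1 against HFD. On library totals, 0 genes were called for HFD+MEC1 against HFD, 0 members for HFD+MEC1 against ND and 3 related genes for HFD against ND. Limma-voom called 2 genes for HFD+MEC1 against HFD, and 2 related genes for HFD against ND and 1 for HFD+MEC1 against ND. Without the low-count filter, 17 genes were called for HFD+MEC1 against HFD. On RPKM with pseudocount 0.1 and 1, called genes were 0 and 1 for HFD+MEC1 against HFD, members 0 and 0 for HFD+MEC1 against ND, related genes 2 and 2 for HFD against ND, and 1 related gene for HFD+MEC1 against ND at pseudocount 1. Fitting only the 2 groups compared, 3 members (Anxa3 and Anxa5 lost) and 2 related genes were called for HFD against ND and 2 genes for HFD+MEC1 against HFD. Same-numbered libraries correlated at -0.0942 to 0.133 (12 pairs) and others at -0.296 to 0.17 (36 pairs). No pairing by number was seen over all genes, and a pairing that touches only some genes was not tested. With the replicate number as a block, 21 genes were called for HFD+MEC1 against HFD. The block fit also called 4 members (Anxa3 lost) and 2 related genes for HFD against ND, and 1 related gene for HFD+MEC1 against ND.

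Leaving out 1 library at a time, called genes numbered 423 to 1109 for HFD against ND (423 without HFD replicate 3, 473 without ND replicate 4, 562 without ND replicate 1), 0 to 460 for HFD+MEC1 against HFD (460 without HFD+MEC1 replicate 1, 72 without HFD replicate 4) and 334 to 678 for HFD+MEC1 against ND (334 without ND replicate 4, 390 without ND replicate 1, 419 without ND replicate 2). Called members numbered 3 to 5, 0 to 3 and 1 to 1 in these comparisons, and related genes 1 to 2, 0 to 2 and 0 to 2. Higher genes made up 53.2% of those called for HFD against ND and 47.2% for HFD+MEC1 against ND, but 79.5% and 66.8% on library totals and 72.6% and 64.2% on RPKM with pseudocount 0.1. Depth limits S100a11, Anxa1 and Anxa3, whose levels were lowest, and Anxa13.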
